A study of Mus musculus with 6 samples.

Results

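Transcripts of 9 genes of insulin signaling were measured in mouse myocardium: Insr, Irs1, Irs2, Pik3ca, Pik3r1, Akt1, Akt2, Mtor and Foxo1, which encode the receptor, adaptors, kinases and a transcription factor of the insulin-PI3K-Akt route. All non-control probes carrying one of these gene symbols in the deposited annotation were taken, whatever their values, which gave 16 probes for 9 genes among 56605 probes. Of these, 15 probes covering all 9 genes rose well above background on every array of 1 group or both and could be tested, as could 22998 probes in all, standing for 13747 genes. No tested probe of the 9 genes differed between the groups at an adjusted p under 0.05 or at a 2-fold change. The values below say how small the differences were, how well these arrays could measure them, and which neighbours of the route differed more.

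In the heart, insulin binds its receptor, a tyrosine kinase, and the receptor phosphorylates the adaptor proteins IRS1 and IRS2. These recruit PI3K, whose lipid product brings AKT kinases to the membrane, and AKT in turn raises mTOR activity and drives FOXO1 out of the nucleus. The route works mainly by phosphorylation, which transcript arrays do not read, and in cardiomyocytes it is known for its part in growth, glucose uptake and the restraint of protein breakdown.

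Hearts came from male C57BL/6J mice of the Clk4-cKO line, in which Clk4, encoding CDC-like kinase 4, carries loxP sites and is deleted by a tamoxifen-inducible Cre, MerCreMer, expressed from the cardiomyocyte α-MHC promoter. The control group (NEXN-WT, 3 arrays) received an AAV9 vector for wild-type nexilin, an actin-binding protein of the Z-disc, and the other group (NEXN-S437E, 3 arrays) received the same vector whose nexilin has the S437E change, a serine replaced by glutamate to mimic phosphorylation. Both vectors drove nexilin from the CMV promoter together with GFP and were given intravenously, so neither group was free of vector or of added nexilin, and both are labelled as Clk4-cKO. The study describes 1 animal per array. Its methods have the vector injected into young mice shortly before the age at which they received tamoxifen, with hearts examined a few weeks after tamoxifen, though not the age at which the hearts for these arrays were taken. No Clk4-intact heart or heart without vector was analysed.

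Whole myocardium was hybridised with 1 dye to Agilent mouse arrays on 1 slide. Between 41.9% and 47.8% of spots were well above background, and no spot was saturated. Levels are given as log2 signal relative to the array's own 75th percentile over detected probes, so that 0 is that percentile, and differences are NEXN-S437E minus NEXN-WT on this log2 scale. Since probes differ in how strongly they bind, a level was compared between arrays and never between probes.

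The labels were checked where the arrays allowed it. Clk4 differed by 0.06 on its tested probe (SE 0.18, limma adjusted p = 0.893), and 2 further Clk4 probes were not well above background on a whole group. With no Clk4-intact heart beside them, and no mm9 sequence to place the probes against the deleted exons, these values do not check the genotype of either group. Nexn, which both vectors carry, differed by -0.06 (SE 0.26) and 0.06 (SE 0.21) on its 2 probes, with limma adjusted p of 0.916 and 0.901. Whether these probes read the vectors' Nexn was not tested, so the values do not show whether added nexilin was alike. Without NEXN-WT replicate 1 the differences were 0.18 for Clk4 and 0.16 and 0.18 for Nexn. An Esr1 probe, A_55_P2030883, stood at 0.65, 3.23 and 2.60 on the NEXN-WT arrays and did not rise well above background on the NEXN-S437E arrays, where it was at least 269-fold lower (limma adjusted p = 0.00221). Of 6 other Esr1 probes, A_52_P237077 was well above background on 0 NEXN-S437E arrays and at least 1.64-fold lower there (limma adjusted p = 0.221, and a difference of -0.02 with normexp background correction), A_65_P17231 differed by -0.66 (SE 0.34, limma adjusted p = 0.365, and -0.29 without NEXN-WT replicate 1), and 4 were not well above background on any array. MerCreMer contains part of the estrogen receptor, whose gene is Esr1, and whether that probe read the gene or the transgene was not tested. Whether both groups carry the transgene alike is not settled by these arrays, so genotype and vector cannot be told apart in any comparison below, and since all 3 arrays of a group share the pattern, no array can be left out to separate them.

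NEXN-WT replicate 1 stood apart from the others. Over all tested probes its mean absolute log2 difference from the other arrays was 0.37 to 0.55, against 0.25 between NEXN-WT replicates 2 and 3. On the 15 tested probes of the insulin route it was the lowest array for 6 and the highest for 5, whereas NEXN-WT replicate 2 was at neither end of any. NEXN-S437E replicate 1 was lowest for 2 and highest for 7. For the insulin route and its neighbours a difference is therefore also given without NEXN-WT replicate 1 where leaving it out changed its size by over 1.5 times or turned its sign.

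Probe sequences are shown for 6 of the 60-base probes, so that what was hybridised can be seen. These probes, as printed in the deposited annotation, run 5′ to 3′ in the sense of the transcript, and the capitals in the Akt1 probe mark the ATG start codon, at base 4 of the probe.
Akt1 A_52_P418014: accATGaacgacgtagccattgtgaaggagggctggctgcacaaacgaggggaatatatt
Akt2 A_51_P408044: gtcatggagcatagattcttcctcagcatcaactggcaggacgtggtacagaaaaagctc
Akt2 A_55_P2066523: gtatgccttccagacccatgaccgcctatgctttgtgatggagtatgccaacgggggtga
Pik3r1 A_52_P307938: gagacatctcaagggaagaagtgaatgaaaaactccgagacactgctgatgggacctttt
Irs2 A_66_P102260: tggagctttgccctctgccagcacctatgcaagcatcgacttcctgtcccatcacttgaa
Insr A_52_P6490: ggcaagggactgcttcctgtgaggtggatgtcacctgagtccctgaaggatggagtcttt
Each of these 6 can be read through in at least 1 frame without a stop codon. The Akt1 probe covers 9267 bases of the genome (mm9, chr12:113900509-113909775, minus strand), the Pik3r1 probe 1043 bases (chr13:102459406-102460448, minus strand) and the first Akt2 probe 141 bases (chr7:28421973-28422113, plus strand), so these 3 join sequence that lies apart on the chromosome and read spliced RNA. The others cover 60 bases each. Probes were not placed in exons or introns, since no mm9 sequence was read.

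Insr encodes the insulin receptor (Entrez 16337, mouse chromosome 8). Its probe A_55_P2173927 (chr8:3155472-3155531, minus strand) read -2.96, -2.32 and -2.70 with NEXN-WT and -2.14, -2.78 and -2.46 with NEXN-S437E. The groups overlapped, and the difference of 0.20 (SE 0.22, 95% interval -0.32 to 0.72, limma adjusted p = 0.662) was smaller than the spread within either group (SD 0.32 in both). Without NEXN-WT replicate 1 it was 0.05. The other Insr probe, A_52_P6490, shown above (chr8:3159473-3159532, minus strand), was well above background on only 1 NEXN-WT and 2 NEXN-S437E arrays and was not tested. It read -6.31, -5.18 and -6.27 with NEXN-WT and -5.30, -5.89 and -6.33 with NEXN-S437E.

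Of the adaptors that carry the receptor's signal to PI3K, Irs1 (A_52_P175242, chr1:82229692-82229751, minus strand) was among the most tightly measured. The NEXN-WT arrays read -0.40, -0.32 and -0.30, and the NEXN-S437E arrays -0.58, -0.54 and -0.38. One NEXN-S437E array lay within the NEXN-WT range. The difference was -0.16 (SE 0.13, 95% interval -0.46 to 0.14, limma adjusted p = 0.538).

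Irs2, the adaptor better known from liver and beta cells (A_66_P102260, chr8:11004490-11004549, minus strand), was much less even. It read 0.04, -0.53 and -0.69 with NEXN-WT and -0.18, -0.94 and -0.88 with NEXN-S437E. In each group replicate 1 was clearly the highest array. The difference was -0.27 (SE 0.27, 95% interval -0.91 to 0.36, limma adjusted p = 0.618), leaving out NEXN-WT replicate 1 gave -0.06 and leaving out NEXN-S437E replicate 1 gave -0.52, and it turned to 0.21 with the row of the slide as a block. Row 1 held all NEXN-WT arrays and NEXN-S437E replicate 1, so that fit sets this single NEXN-S437E array against them.

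Pik3ca encodes the p110α catalytic subunit of PI3K. Its probe (A_65_P09318, chr3:32364747-32364806, plus strand) read -3.68, -3.70 and -4.35 on the NEXN-WT arrays against -3.98, -3.90 and -4.00 on the NEXN-S437E arrays, which lay inside the NEXN-WT range. At -0.05 (SE 0.20, 95% interval -0.52 to 0.42, limma adjusted p = 0.913) this was one of the smallest differences of the route, and its sign changed with the scaling (0.02 with the deposited normalized values) and without NEXN-WT replicate 1 (0.07).

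Pik3r1, the p85α regulatory subunit that binds IRS proteins through its SH2 domains, read -0.38, -0.12 and -0.56 with NEXN-WT and -0.02, -0.23 and -0.13 with NEXN-S437E. NEXN-WT replicate 2 lay among the NEXN-S437E arrays, and the other NEXN-WT arrays lay below them. The difference was 0.22 (SE 0.16, 95% interval -0.14 to 0.59, limma adjusted p = 0.488), and 0.21 without NEXN-WT replicate 1.

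Akt1 and Akt2 encode the 2 AKT kinases, Akt2 being the isoform best known for insulin-stimulated glucose uptake and Akt1 for growth. Each had 3 tested probes. Akt1 A_51_P237553 (chr12:113892079-113892138, minus strand) read 2.40, 2.88 and 2.81 with NEXN-WT and 3.06, 2.82 and 2.86 with NEXN-S437E, a difference of 0.22 (SE 0.17, 95% interval -0.18 to 0.61, limma adjusted p = 0.533) that was 0.07 without NEXN-WT replicate 1, the lowest array. The start-codon probe shown above read -1.93, -1.95 and -2.47 against -1.59, -2.11 and -1.59, a difference of 0.36 (SE 0.22, 95% interval -0.15 to 0.86, limma adjusted p = 0.428). With 1 array left out it ranged from 0.18 (without NEXN-WT replicate 3) to 0.53 (without NEXN-S437E replicate 2, the array within the NEXN-WT range).

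The third Akt1 probe, A_66_P107415 (chr12:113894094-113894153, minus strand), has no RefSeq accession in the annotation and went with neither of the other two. It read -3.44, -3.30 and -3.64 with NEXN-WT and -3.25, -3.58 and -3.64 with NEXN-S437E, a difference of -0.03 (SE 0.16, 95% interval -0.41 to 0.36, limma adjusted p = 0.942), whose sign changed under other scalings (0.06 with the deposited normalized values).

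For Akt2, all 3 probes were higher with NEXN-S437E, none past a threshold. Probe A_55_P2066518 (chr7:28424405-28424464, plus strand) read 1.96, 2.46 and 2.57 with NEXN-WT and 2.73, 2.67 and 2.52 with NEXN-S437E. Its difference was 0.31 (SE 0.19, 95% interval -0.13 to 0.75, limma adjusted p = 0.430). The first Akt2 probe printed above read -2.67, -2.31 and -2.23 against -2.04, -2.02 and -2.30 (difference 0.28, SE 0.17, limma adjusted p = 0.420), and the second (chr7:28418226-28418285, plus strand) read -2.79, -2.22 and -1.85 against -1.68, -2.03 and -2.07 (difference 0.36, SE 0.25, limma adjusted p = 0.484). NEXN-WT replicate 1 was the lowest array on all 3 probes, and the groups overlapped on each. Without it the differences were 0.12, 0.15 and 0.11, so much of the Akt2 difference rested on that array.

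Mtor encodes the kinase at the centre of both mTOR complexes. On probe A_51_P282179 (chr4:147931250-147931309, plus strand) the NEXN-WT arrays read -3.36, -3.77 and -3.55 and the NEXN-S437E arrays -4.07, -3.55 and -3.64. This gave -0.19 (SE 0.19, 95% interval -0.63 to 0.25, limma adjusted p = 0.618), with NEXN-S437E replicate 1 below all other arrays, and -0.09 without NEXN-WT replicate 1. The other Mtor probe, A_52_P67643 (chr4:147829016-147829075, plus strand), has no RefSeq accession in the annotation and lay the other way. Its NEXN-WT values were -4.08, -4.03 and -3.90 and its NEXN-S437E values -3.87, -3.86 and -3.82, so the groups did not overlap, but the difference was only 0.15 (SE 0.12, 95% interval -0.14 to 0.44, limma adjusted p = 0.542). The 2 probes thus gave no common direction for Mtor in the main fit. With normexp background correction both were higher, at 0.04 and 0.27.

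Foxo1 encodes the transcription factor that AKT phosphorylation keeps out of the nucleus, and it had the smallest p-values of the route. Probe A_55_P2798990 (chr3:52150946-52151005, plus strand) read 0.51, 0.38 and 0.20 with NEXN-WT and 0.12, 0.02 and 0.11 with NEXN-S437E. Every NEXN-S437E array lay below every NEXN-WT array. The means were 0.36 ± 0.16 (SD, n = 3) and 0.08 ± 0.06 (SD, n = 3), a difference of -0.28 (SE 0.14, 95% interval -0.60 to 0.04), or 1.21-fold lower, with an unadjusted limma p of 0.0775 and an adjusted p of 0.350. Probe A_52_P453884 (chr3:52153289-52153348, plus strand) gave 0.19, 0.06 and -0.22 with NEXN-WT against -0.20, -0.42 and -0.30 with NEXN-S437E. Here NEXN-S437E replicate 1 lay just inside the NEXN-WT range. The difference was -0.31 (SE 0.15, 95% interval -0.67 to 0.05), or 1.24-fold lower, with an unadjusted limma p of 0.0779 and an adjusted p of 0.351. Without NEXN-WT replicate 1 the 2 differences were -0.21 and -0.23. Both probes stayed lower with NEXN-S437E in all 18 alternative analyses, from -0.43 to -0.20. Those that changed only the filter on dim probes, the test, the replicate block or the intensity trend keep the main difference by construction. They could not have turned the direction. Neither probe passed an adjusted p of 0.05 in any of the 18.

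**Figure D1:**
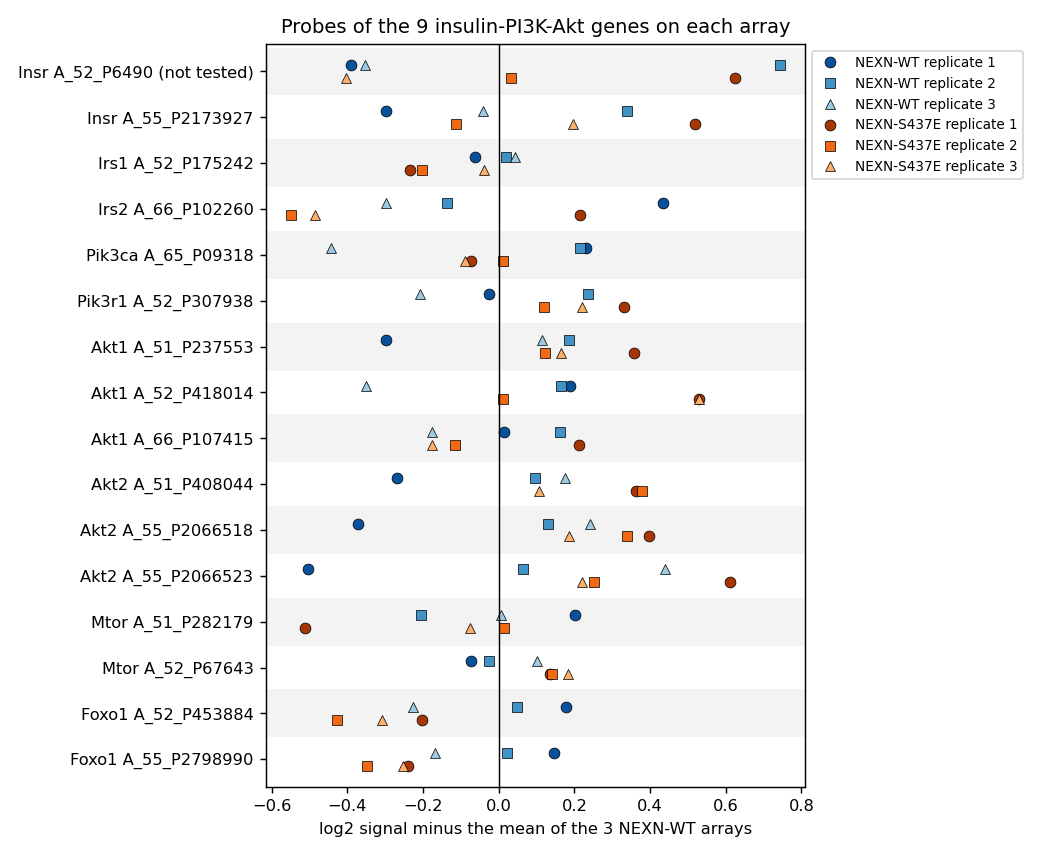
Log2 signal of the 16 probes on each of the 6 arrays, after subtracting the mean of the 3 NEXN-WT arrays for that probe (x axis, log2), with 1 row per probe and the 2 groups in different colours. The groups overlap in all tested rows but Mtor A_52_P67643 (NEXN-S437E higher) and Foxo1 A_55_P2798990 (NEXN-S437E lower).

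Counted together, 8 of the 15 tested probes were higher with NEXN-S437E and 7 lower, and the 95% interval of each difference held 0. No probe passed an adjusted p under 0.05, a rule met by 0.148% of all tested probes, or the study's rule of a 2-fold change with an unadjusted p under 0.05, met by 2.57%. At an unadjusted limma p under 0.05 the count was again 0, where 16.4% of all tested probes passed. The groups did not overlap for 2 of the 15, against 26.8% of all tested probes. The median difference of the 15 probes, of which 6 belong to Akt1 and Akt2, was 0.15, or 0.07 without NEXN-WT replicate 1, and that of all tested probes was 0.01. Among the other probes, leaving out 1 array at a time moved Insr between 0.04 and 0.37, Pik3r1 between 0.12 and 0.34, Akt1 A_51_P237553 between 0.07 and 0.31, the 3 Akt2 probes between 0.11 and 0.58 and Mtor A_51_P282179 between -0.29 and -0.03. With 1 probe per gene, 4 of the 9 genes were higher and 5 lower, and the median was -0.05, or 0.05 without NEXN-WT replicate 1.

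In the main fit, unadjusted intervals bounded the differences of these genes to less than 2-fold. A 2-fold change need not have passed an adjusted p under 0.05. Col3a1, a fibroblast marker, did not at a difference of -1.42 (SE 0.25, limma adjusted p = 0.105). For all 15 probes the 95% interval of the difference lay within 2-fold in both directions, as it did for 82.5% of all tested probes. The median half-width of that interval was 0.40 for the 15 probes, from 0.29 for Mtor A_52_P67643 to 0.63 for Irs2, and 0.41 for all tested probes. The spread within groups was also like that of other probes, with a median SD of 0.24 for NEXN-WT and 0.13 for NEXN-S437E against 0.23 and 0.16.

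**Figure D2:**
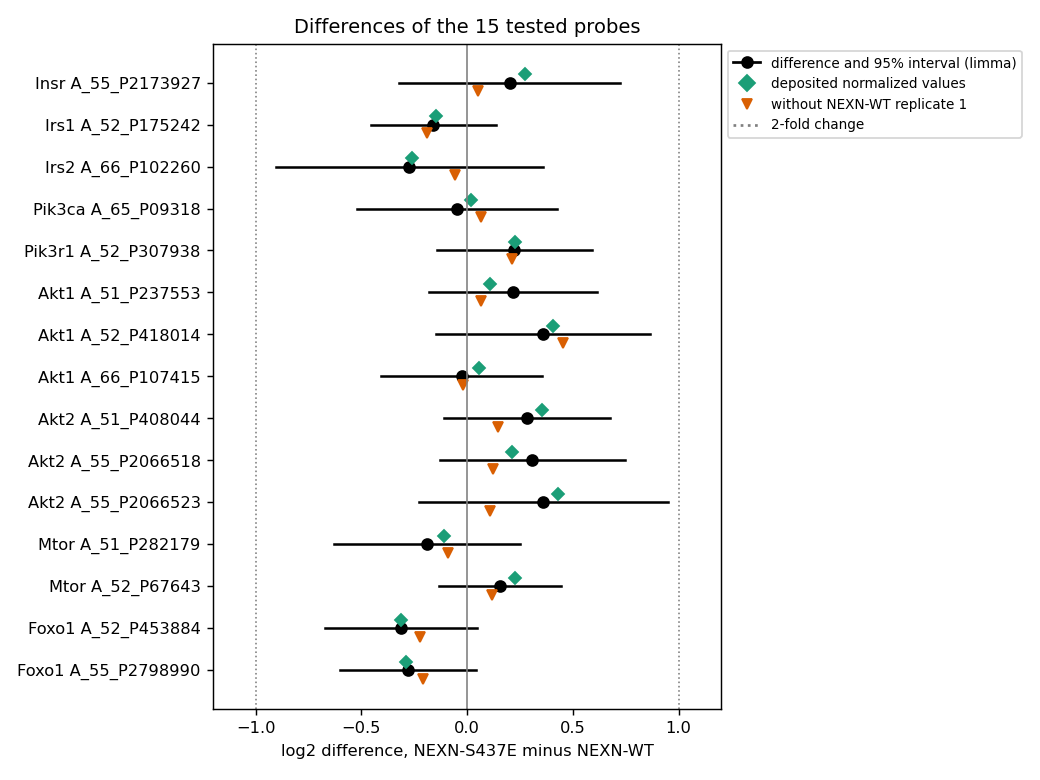
Difference between the groups for the 15 tested probes (x axis, log2, NEXN-S437E minus NEXN-WT), with points for the fitted difference and bars for its 95% interval from limma, and the 2-fold limits at -1 and 1. All 15 intervals hold 0 and lie within 2-fold, and the lowest differences are those of Foxo1.

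Genes whose pattern over the 6 arrays was closest to Foxo1 A_55_P2798990 were Myo9b (Pearson r = 0.997), Smek1 (r = 0.995) and Vcpip1 (r = 0.995). With 6 arrays that share normalization and group structure, this is a description only, and 5.49% of tested probes with a gene symbol had an r over 0.9.

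Around these 9 genes, 7 lists held 117 further genes of the route, of which 103 were tested, with 1 probe per gene. Castor1 had no probe under that symbol, and Insrr, Irs3, Irs4, Pik3cg, Pik3r5, Pik3c2g, Pik3ap1, Sgk2, Tcl1, Foxo4, Pck1, G6pc and Igfbp1 were not well above background on a whole group. No list gene passed an adjusted p under 0.05, where 0.182% of all 13747 genes did. At an unadjusted limma p under 0.05 there were 6 higher and 7 lower genes, 13 of 103, against 17.9% of all genes. None of these 13 genes, which are named below, kept an unadjusted p under 0.05 in all 18 alternative analyses. Inpp5d kept it in 17, Sh2b2 and Pik3c2b in 16, Enpp1 in 15 and the others in 6 to 13. The median difference of the 103 genes was -0.01. It was -0.02 without NEXN-WT replicate 1 and turned to 0.05 with the deposited normalized values. With other probes of the same genes included, 168 probes were tested, of which 13.7% had an unadjusted p under 0.05 and none an adjusted p under 0.05.

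Receptors, adaptors and their inhibitors held the only list genes past the 2-fold rule by the probe standing for the gene, and both were lower with NEXN-S437E. They were 2 of 103 tested genes, where 3.04% of all genes met that rule. Enpp1, a membrane pyrophosphatase that can bind and inhibit the insulin receptor, read -1.33, -2.87 and -3.36 with NEXN-WT and -3.76, -4.11 and -3.86 with NEXN-S437E on probe A_66_P111135. The groups did not overlap, and the difference was -1.39 (SE 0.47, limma adjusted p = 0.232), but -0.79 without NEXN-WT replicate 1. Its other tested probe, A_51_P408584, differed by -2.05 (SE 0.48, adjusted p = 0.153). Sh2b2, an SH2-domain adaptor also called APS that binds the activated receptor, read -3.96, -4.48 and -4.79 with NEXN-WT and -5.51, -6.05 and -5.11 with NEXN-S437E (difference -1.15, SE 0.29, adjusted p = 0.167). Leaving out NEXN-WT replicate 1 gave -0.92, so that neither gene was then past 2-fold by the probe standing for it, although Enpp1 A_51_P408584 still differed by -1.44. With normexp background correction, which models the local background of each spot, Enpp1 A_66_P111135 differed by -0.83 and Sh2b2 by only -0.15. The other genes of this list at an unadjusted p under 0.05 were Igf1r, the IGF-1 receptor (-0.37, SE 0.15), and the adaptor Shc1 (-0.39, SE 0.16, but -0.25 without NEXN-WT replicate 1), named after their values were seen, both lower. None of the 13 tested genes of the list was higher at that level.

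Of the 10 tested genes for other PI3K subunits and interacting proteins, Pik3c2b, a class II catalytic subunit, was higher at an unadjusted p under 0.05 (0.63, SE 0.21, limma adjusted p = 0.230). The regulatory subunit Pik3r3 was at -0.35 (SE 0.17, adjusted p = 0.344). Without NEXN-WT replicate 1 these differences were 0.40 and -0.21. Among 11 phosphatases that oppose the route, Inpp5d, the SHIP1 lipid phosphatase of blood cells, differed by -0.45 (SE 0.14, adjusted p = 0.214). In the main fit these differences were small next to those of Enpp1 and Sh2b2. With normexp background correction this order was not kept for Sh2b2. Among 10 further kinases, pseudokinases and AKT regulators, Trib3, a pseudokinase that binds AKT, differed by -0.40 (SE 0.14, adjusted p = 0.238). Sgk3, an AKT relative, differed by 0.40 (SE 0.21, adjusted p = 0.375), or 0.17 without NEXN-WT replicate 1. The other tested Sgk3 probes differed by 0.27, 0.04 and -0.15, so they gave no common direction.

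The mTOR complexes, their regulators and outputs formed the longest list, with 28 tested genes and a median difference of 0.03. This median was 0.07 without NEXN-WT replicate 1 and 0.08 with the deposited normalized values. Tsc2, the tuberin brake on mTOR complex 1, was at 0.36 (SE 0.15, adjusted p = 0.290) on the probe standing for it and at 0.05 on its other probe, and Mapkap1, a subunit of mTOR complex 2, was at -0.32 (SE 0.13, adjusted p = 0.296), with -0.19 and -0.11 on its other tested probes. Rictor, the defining subunit of mTOR complex 2, differed by -0.09 (SE 0.26) on the probe standing for it, A_52_P145412, and by 0.17 without NEXN-WT replicate 1. Another Rictor probe, A_51_P218948, named after its value was seen, was well above background on all 3 NEXN-WT arrays and on 0 NEXN-S437E arrays, so that only a bound of at least 1.37-fold lower can be given (limma adjusted p = 0.144). It was tested only because of the group in which it was high, and with normexp background correction its fitted value turned to 0.16.

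FOXO family members and known targets of FOXO factors gave the highest list median, 0.16 over 20 tested genes, of which 12 were higher and 8 lower. Those at an unadjusted p under 0.05, all higher, were Bnip3, a mitochondrial mitophagy receptor (0.51, SE 0.16, adjusted p = 0.211), Klf15, a regulator of cardiac lipid use (0.42, SE 0.15, adjusted p = 0.253), and Lpl, lipoprotein lipase (0.43, SE 0.16, adjusted p = 0.255), the last named after its value was seen. A further Lpl probe, A_55_P2738847, gave 1.06 (SE 0.27, adjusted p = 0.168), also past the 2-fold rule. With the deposited normalized values Bnip3 differed by 0.31 and the first Lpl probe by 0.26, neither then at an unadjusted p under 0.05. Foxo1 itself, as given above, was lower. In the list for insulin-regulated glucose uptake, 5 of the 11 tested genes were higher and 6 lower, with a median of -0.04. It was -0.03 without NEXN-WT replicate 1. Tbc1d4, the AKT substrate AS160, was at 0.49 (SE 0.18, adjusted p = 0.247) and hexokinase 2, Hk2, at 0.42 (SE 0.20, adjusted p = 0.344). Slc2a4, the insulin-responsive glucose transporter GLUT4, named here for its role, read 3.08, 3.93 and 3.83 with NEXN-WT and 4.11, 4.03 and 4.00 with NEXN-S437E (difference 0.43, SE 0.23, adjusted p = 0.381). NEXN-WT replicate 1 was its lowest array, and without that array the difference was 0.17 for Slc2a4 and 0.22 for Hk2. With the deposited normalized values Slc2a4 differed by 0.28.

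**Figure D3:**
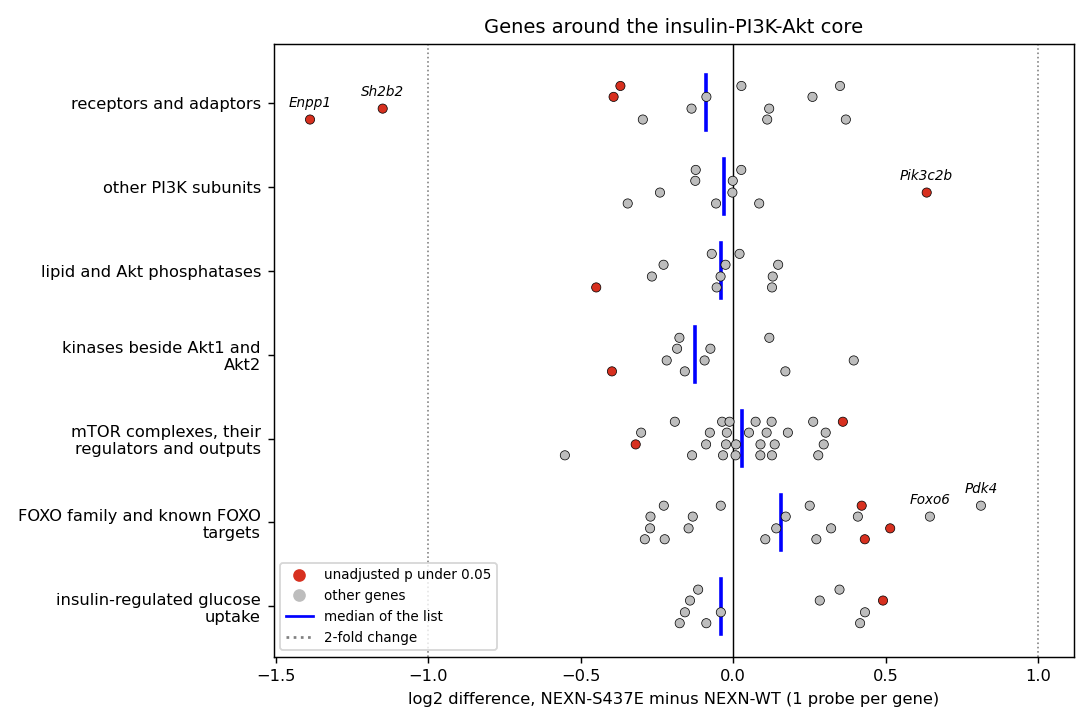
Difference for each tested gene of the 7 lists (x axis, log2, NEXN-S437E minus NEXN-WT, 1 probe per gene), with 1 row per list and 1 point per gene. Points crowd around 0 in all lists, and Enpp1 (-1.39) and Sh2b2 (-1.15) lie past the 2-fold line on the lower side.

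Several lists of cell type markers differed between the groups by more than any of the 9 genes. In bulk tissue, fewer cells of a type and less RNA per cell cannot be told apart. The mean log2 signal of 10 cardiomyocyte markers was 4.32 to 4.73 with NEXN-WT and 4.89 to 4.99 with NEXN-S437E, a difference of 0.37, or 0.24 without NEXN-WT replicate 1. That gap depended on the scaling, since with the deposited normalized values it was 0.14 and the groups overlapped (14.5 to 14.7 and 14.7 to 14.8). The 8 fibroblast markers stood at 2.34 to 3.37 and 1.38 to 1.52, the 6 tested of 7 T cell markers at -3.67 to -3.28 and -5.21 to -4.95, and the 2 tested of 5 B and plasma cell markers at -3.99 to -3.44 and -6.24 to -5.95. Those 3 lists were lower with NEXN-S437E on every array. Of their single genes 6 fibroblast and 5 T cell markers were lower at an unadjusted limma p under 0.05, and Cd3d, Lck and Cd3g also at an adjusted p under 0.05. Cd3g and the plasma cell gene Jchain, however, were well above background on 0 NEXN-S437E arrays and had passed the filter through NEXN-WT alone, so they are at least 2.30-fold and at least 4.36-fold lower. With markers well above background on all 6 arrays only, the T cell list (5 genes) stood at -3.45 to -3.01 and -4.71 to -4.38 and the B cell list (1 gene) at -4.12 to -3.45 and -4.53 to -4.30, still without overlap. The 2 tested of 4 atrial markers stood at 2.51 to 3.02 and 1.41 to 1.89. They were Myl4 and Nppa, the natriuretic peptide gene that the ventricle also re-expresses in hypertrophy, which differed by -1.47 (SE 0.16, limma adjusted p = 0.0303).

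The 7 endothelial markers stood at 1.29 to 1.58 with NEXN-WT and 1.35 to 1.53 with NEXN-S437E, the 6 smooth muscle and pericyte markers at 0.68 to 0.93 and 0.32 to 0.84, and the 7 macrophage markers at 0.30 to 0.82 and 0.32 to 0.40. The 2 tested of 5 adipocyte markers stood at -0.40 to -0.35 and -0.18 to 0.16, and the 3 tested of 4 erythrocyte markers at -1.83 to -0.37 and -2.22 to 1.15. NEXN-WT replicate 1 had the highest fibroblast and the lowest cardiomyocyte value of its group, and it was also the array lowest for Akt2 and highest for Enpp1 and Foxo1. Among the markers that were not tested were Cd8a (T cell), Adipoq, Plin1 and Cfd (adipocyte) and Myl7 and Sln (atrial). The part of cell composition in the values of the insulin route was not tested.

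**Figure D4:**
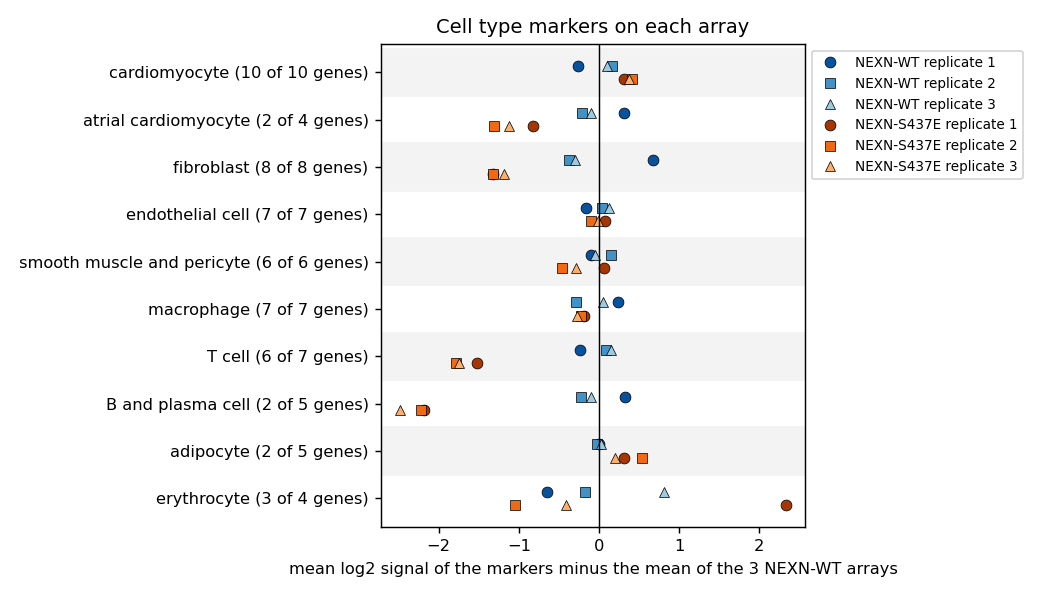
Mean log2 signal of the tested markers of each cell type on each array, after subtracting the mean of the 3 NEXN-WT arrays (x axis, log2), with 1 row per cell type. The NEXN-S437E arrays lie below every NEXN-WT array for fibroblast, T cell, B and plasma cell and atrial markers, and above them for cardiomyocyte and adipocyte markers, a gap that for cardiomyocyte markers was not kept with the deposited normalized values.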

How the data were processed

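Total RNA from 6 hearts was labelled with Cy3 and read on Agilent arrays, and the authors extracted the scans with Feature Extraction 10.7.1.1. The values the authors deposited per array are intensities on a linear scale, background-subtracted but not scaled between arrays. For the whole series they also deposited processed signals and normalized log2 values. Those processed signals matched the per-array intensities, averaged over the spots of a probe, within a relative tolerance of 0.001 for 99.8% of values. The 6 normalized columns have nearly the same distribution. The normalization is not given in the sources used here. Flags for background and outliers came from the scanner files, and probe coordinates (mm9) and gene symbols from the deposited annotation.

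Control and outlier spots were left out and spots of a probe averaged. As under 50% of spots were detected, log2 signals were scaled to the 75th percentile over the 21099 probes well above background on all 6 arrays. Groups were compared on 22998 probes with limma 3.58.1 in R 4.3.3 (with the data.table package, version 1.17.8), two-sided, with Benjamini-Hochberg adjustment over all of them, at an adjusted p of 0.05 or, as in the study, a 2-fold change at an unadjusted p of 0.05. The fit was tested on simulated data. For a gene with several probes in a list, the probe of highest mean detected on all arrays stood for it. Arrays give no counts, and precision was set by their number and by how far signals lay over background. Figures were drawn with matplotlib 3.10.9 (Python 3.11.15, pandas 2.3.3, numpy 2.4.6).

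The 9 genes, the lists and the rule for named genes were chosen with earlier results of these data known. The rule named every probe of the 9 genes, list genes past either threshold and otherwise the 2 of smallest p in a list, the study's own genes Clk4, Nexn and Esr1, and the 3 genes most like the leading probe. A few genes of the lists are not reported here by name. Alternatives covered scaling, background correction, filters, the test, blocks, weights and each array left out.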

Additional observations from a re-analysis of the deposited data

How the results depend on the processing

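Under each of 18 alternatives, no probe of the 9 genes reached an adjusted p under 0.05 (lowest 0.204) or the 2-fold rule. Of 270 differences recomputed, 253 kept their direction. The changed filters on dim probes, the t-test, the replicate block and the intensity trend keep the main difference by construction. They could not turn a direction. Pik3ca turned to 0.0277 with the percentile over all probes, 0.0164 with the deposited normalized log2 values, 0.0167 with quantile normalization and 0.182 with normexp background correction. Akt1 A_66_P107415 turned to 0.0506, 0.0565, 0.0568 and 0.146 in the same order and to 0.213 with slide row as a block. Mtor A_51_P282179 turned to 0.0357 with normexp, Irs2 to 0.214 with slide row as a block, and Insr to -0.0237 with array weights. With 1 array left out, Pik3ca ranged from -0.271 to 0.0651 and Akt1 A_66_P107415 from -0.146 to 0.0539. Among other genes, Nexn A_52_P367520 turned to 0.0167 with the percentile over all probes and 0.231 with array weights (-0.263 to 0.159 with 1 array left out), Nexn A_55_P2745249 to -0.118 with slide row as a block (-0.139 to 0.182), Clk4 ranged from -0.0503 to 0.184, and with normexp Esr1 A_65_P17231 turned to 0.0272 and Rictor A_52_P145412 to 0.169. The latter was 0.0634 with array weights and -0.377 to 0.171 with 1 array left out. The fitted value of Rictor A_51_P218948, at background on all NEXN-S437E arrays and so only a bound, was 0.162 with normexp. The cause was not tested.

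The number of probes of the 9 genes at an unadjusted p under 0.05, 0 in the main analysis, was 1 with normexp, 2 by the methods' t-test, 1 with an intensity trend, 1 with array weights and 0 to 3 with 1 array left out, 3 being without NEXN-WT replicate 3 (both Foxo1 probes and Akt2 A_55_P2066523) and 1 without NEXN-S437E replicate 2. Non-overlapping probes fell from 2 to 1 with normexp. Intervals within 2-fold held for 10 of the 15 probes with slide row as a block and for 12 to 14 with 1 array left out. List genes at the 2-fold rule, 2 in the main analysis, were 0 with normexp, 1 by the t-test, 0 with slide row as a block, 1 with array weights and 0 to 2 with 1 array left out (1 without NEXN-WT replicate 1, where it was Pdk4 at 1.18 and neither Enpp1 nor Sh2b2, and 0 without NEXN-S437E replicate 2). One Enpp1 probe, A_51_P408584, passed with array weights alone (-1.76, limma adjusted p = 0.0363), where NEXN-WT replicate 1 had a weight of 0.262. Esr1 A_55_P2030883, for which the NEXN-S437E arrays give only a bound, had an adjusted p of 0.225 with the t-test and 0.0630 with slide row as a block.

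Over all probes, the 34 calls at an adjusted p under 0.05 became 6 without a filter on dim probes, 18 with detection on all 6 arrays, 0 by the methods' t-test, 0 with slide row as a block, 496 with array weights and 6 to 124 with 1 array left out (124 without NEXN-WT replicate 1, 6 without replicate 2, and 11 to 15 without one of the NEXN-S437E arrays). The 590 calls of the 2-fold rule became 176 with normexp, 1948 without the filter, 354 with detection on all 6 arrays and 375 to 917 with 1 array left out (375 without NEXN-WT replicate 1, 917 without replicate 3). Same-numbered samples did not deviate together (correlations -0.15, -0.03 and -0.18). No pairing by number was thus seen, though 3 arrays per group are too few to settle it. The replicate block gave 12 calls at an adjusted p under 0.05 and changed no call for the 9 genes. Slide and scan could not be fitted as blocks, as there was 1 slide and 1 scan.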
